A study of Rattus norvegicus with 6 samples.

Results

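The genes described here carry out haem synthesis and breakdown in rat liver: *Alas1*, *Alad*, *Uros*, *Urod*, *Cpox* and *Fech* of synthesis, the haem carrier *Slc48a1*, and *Hmox1* and *Blvrb* of breakdown. They were taken from the arrays by the RefSeq accession of each probe. All 9 genes were found, with 12 probes, among 11235 named genes and 29326 features (genes plus probes without a gene name) that were tested. Each was well above background on all 6 arrays. Liver RNA of 6 male Sprague-Dawley rats (Crl:CD(SD), 5 weeks old at purchase, on basal diet and tap water) was hybridised to 1-colour Agilent arrays, each animal on its own array. Corn oil was given to the vehicle animals (n = 3). The treated animals (n = 3) were given 300 mg/kg/day of TBBC, an antioxidant in which a 4,4'-thiobis bridge joins paired 6-tert-butyl-m-cresol rings. According to the series text the liver was measured at 28 days, whereas the treatment protocol gives 9 weeks of dosing. The route of dosing and the age at sampling are not given in the sources used here.

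Haem synthesis starts in the mitochondrion, where ALAS1, the housekeeping 5-aminolevulinate synthase, joins glycine and succinyl-CoA. It continues through cytosolic enzymes that build the porphyrin ring and ends in the mitochondrion, where ferrochelatase inserts iron. In hepatocytes the first step is rate-limiting, haem represses it, and much of the product goes into cytochromes P450. Drugs that induce these cytochromes are known to induce ALAS1 as well. Breakdown by haem oxygenase gives iron, carbon monoxide and biliverdin, which biliverdin reductases turn into bilirubin for glucuronidation and export into bile.

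The promoters of 3 of the 9 genes are shown because in these genes every TBBC array lay above every vehicle array and a sequence was at hand. RefSeq's promoter table (build GRCr8) matched 6 of the 9 genes, with 250 bases before and 50 bases after the start of each gene. The *Alas1* promoter, chr8:115768593-115768892 on the minus strand, is printed with matches to the motif of nuclear respiratory factor 1 (GCGCA, any base, then GCGC) in capitals. The *Blvrb* promoter, chr1:91866008-91866307 on the plus strand, and the *Fech* promoter, chr18:60248476-60248775 on the minus strand, are printed with matches to GGGCGG, the GC box, in capitals.
Alas1: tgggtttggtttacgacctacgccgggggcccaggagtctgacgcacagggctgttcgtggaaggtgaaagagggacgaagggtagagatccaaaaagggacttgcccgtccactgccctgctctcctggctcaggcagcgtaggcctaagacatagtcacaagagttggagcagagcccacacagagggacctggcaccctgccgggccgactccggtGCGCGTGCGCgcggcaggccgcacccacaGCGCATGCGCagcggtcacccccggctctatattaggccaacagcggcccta
Blvrb: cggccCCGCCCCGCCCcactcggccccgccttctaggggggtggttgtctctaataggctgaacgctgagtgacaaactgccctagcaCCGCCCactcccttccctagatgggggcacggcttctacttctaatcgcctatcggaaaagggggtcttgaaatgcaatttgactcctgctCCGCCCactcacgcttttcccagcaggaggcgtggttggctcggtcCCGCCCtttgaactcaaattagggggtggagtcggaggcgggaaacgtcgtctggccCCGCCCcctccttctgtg
Fech: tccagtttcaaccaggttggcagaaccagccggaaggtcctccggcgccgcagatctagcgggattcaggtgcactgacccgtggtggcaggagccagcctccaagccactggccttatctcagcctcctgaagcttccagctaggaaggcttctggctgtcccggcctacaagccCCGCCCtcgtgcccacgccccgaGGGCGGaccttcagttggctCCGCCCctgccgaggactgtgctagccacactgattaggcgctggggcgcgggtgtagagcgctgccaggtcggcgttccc

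On both strands, the motif of nuclear respiratory factor 1 was found in 4.25% of the 33469 promoters of the table. Among the 6 matched haem genes, *Alas1* alone held it, with 2 matches that do not overlap, GCGCGTGCGC at positions -31 to -22 and GCGCATGCGC at -2 to 8 relative to the start of the gene. GGGCGG was found in 33.1% of all promoters and in 4 of the 6 haem genes. *Alad* held 6 matches and *Urod* 3, and the levels of both genes overlapped between the groups. *Blvrb* held 6 matches, of which the outermost pair, starting at -245 and -240, overlapped by a base, and *Fech* held 3. AGTTCA, a motif of elements bound by the drug-sensing receptors CAR and PXR, was found in 14.5% of all promoters and in *Blvrb* at -17 to -12. TGACNNNGC, the core bound by NRF2 and BACH1, was found in 12.1% of all promoters and in these windows of none of the 6 genes. The other motifs searched were CACGTG (6.42% of all promoters, 2 of the 6 genes), AGGTCA (16.2%, 0 genes), CCAAT (37.5%, 1 gene) and TATAAA (14.2%, 0 genes). A match describes the letters and not a bound site.

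Levels are given as log2 of the background-subtracted signal relative to the array's 75th percentile, so that a value of 1.00 lies 1.00 log2 unit above it. Differences are TBBC minus vehicle with the moderated standard error of limma, and p-values were adjusted by Benjamini-Hochberg over all 29326 features with a threshold of 0.05. Over all features, 902 passed (3.08%), 492 of them higher and 410 lower, which is 54.5% higher. With median centring 70.9% of calls were higher, and with scaling on spike-in controls 81.5%. All vehicle arrays lay on one slide with one scan and all TBBC arrays on another, so slide, scan and treatment cannot be told apart. Array correlations were 0.986 to 0.99 within vehicle, 0.989 to 0.991 within TBBC and 0.975 to 0.984 between groups, and vehicle replicate 2 had the lowest 75th percentile (465.2, against 577.9 to 638.2 on the others).

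Differences were unequal along the pathway. *Alas1*, the first enzyme of synthesis, and *Fech*, the last, had values on all TBBC arrays above those on all vehicle arrays. So had the haem carrier *Slc48a1*, the inducible haem oxygenase *Hmox1* and the reductase *Blvrb*. *Hmox2* and *Blvra*, the other haem oxygenase and biliverdin reductase measured, overlapped between the groups. Of the 9 genes, 4 act in between, *Alad*, *Uros*, *Urod* and *Cpox*, and these overlapped between the groups. *Ppox*, a further enzyme in between, overlapped too. At the adjusted threshold *Slc48a1* rose, 0 of the 9 genes fell and 8 did not pass. Thus 1 of 9 genes was called higher, beside 1.68% of all features. By unadjusted p under 0.05, 6 of the 9 differed, beside 23.0% of all features. In 5 of the 9 genes all TBBC values were higher, beside 12.3% of all features, and in 0 of 9 all were lower, beside 18.8%. The median difference of the 9 genes was 0.50, with a range of -0.41 to 1.49, and that of all features was -0.06. In RNA of whole liver, a change in the number of cells of a type and a change in RNA per cell cannot be told apart.

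**Figure D1:**
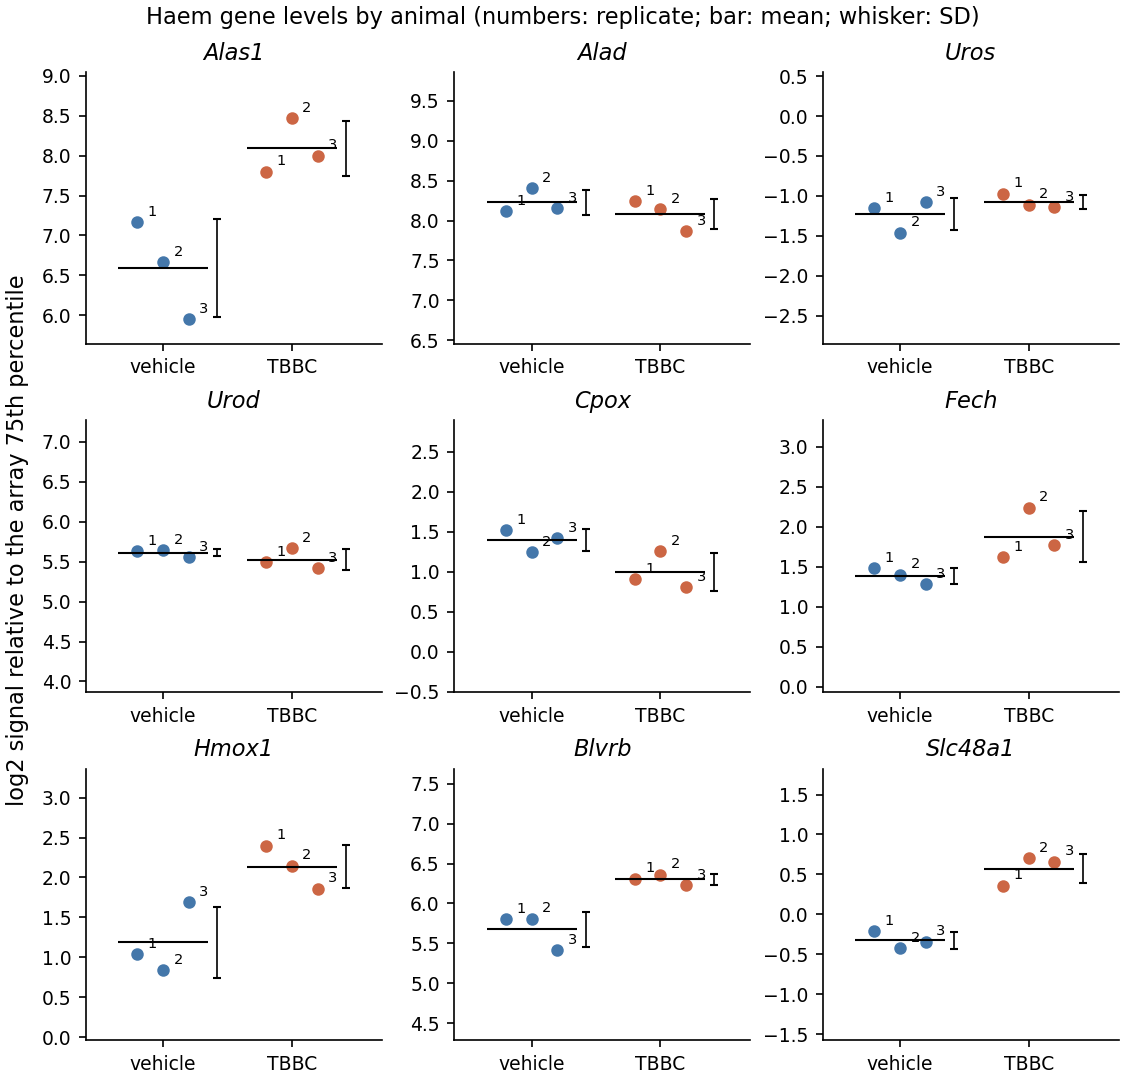
Log2 signal relative to the array's 75th percentile (vertical axis) of each haem gene in the 3 vehicle and 3 TBBC animals; points carry the replicate number, the horizontal bar is the group mean and the whisker the SD, and every panel spans the same number of log2 units. The groups are apart for Alas1, Fech, Hmox1, Blvrb and Slc48a1 and overlap for Alad, Uros, Urod and Cpox.

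*Alas1* (NM_024484) encodes the rate-limiting enzyme of hepatic haem synthesis. With vehicle its level was 7.17, 6.67 and 5.95 in replicates 1, 2 and 3, the order kept for all genes here. With TBBC it was 7.8, 8.47 and 8.0. The groups did not overlap, and vehicle replicate 3 was the lowest array. The mean was 6.60 ± 0.61 with vehicle and 8.09 ± 0.35 with TBBC (SD, n = 3 each). The log2 difference was 1.49 ± 0.33 (SE; 95% interval 0.70 to 2.29), a 2.82-fold difference (1.63 to 4.88), the widest of the 9 genes in size. It did not pass over all features (limma adjusted p = 0.069). It passed in 2 of 18 alternative settings, scaling on spike-in controls (adjusted p = 0.0315) and normexp background correction (adjusted p = 0.0356). Over the 18 settings the adjusted p ranged from 0.0315 to 0.19 and the difference from 1.17 to 1.78.

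*Alad* (NM_012899) encodes the dehydratase that joins a pair of aminolevulinate molecules to porphobilinogen. Its level was 8.12, 8.41 and 8.16 with vehicle and 8.24, 8.14 and 7.87 with TBBC. The groups overlapped, and the log2 difference was -0.15 ± 0.15 (95% interval -0.50 to 0.21, adjusted p = 0.576). Its sign turned with spike-in scaling (0.07). *Uros* (NM_001012068), uroporphyrinogen III synthase, closes the ring. It lay at -1.15, -1.46 and -1.08 with vehicle and at -0.97, -1.11 and -1.14 with TBBC. These groups overlapped too, with a log2 difference of 0.16 ± 0.14 (95% interval -0.17 to 0.49, adjusted p = 0.514), which was -0.05 with normexp.

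*Urod* (NM_019209), uroporphyrinogen decarboxylase, trims the side chains of the ring and is the enzyme impaired in porphyria cutanea tarda. It lay at 5.63, 5.64 and 5.56 with vehicle and at 5.49, 5.67 and 5.42 with TBBC, so the groups overlapped. The log2 difference was -0.08 ± 0.11 (95% interval -0.35 to 0.19, adjusted p = 0.694), and its second probe gave 0.07. The sign of *Urod* also turned with median centring (0.02) and spike-in scaling (0.14). The intervals of *Alad*, *Uros* and *Urod* all end below the 0.70 at which that of *Alas1* begins. These are separate intervals, not adjusted over the features, and do not test *Alas1* against the other genes.

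*Cpox* (NM_001037095), the mitochondrial coproporphyrinogen oxidase, had the lowest difference of the 9 genes. Its level was 1.52, 1.25 and 1.42 with vehicle and 0.91, 1.26 and 0.81 with TBBC. Vehicle replicate 2 and TBBC replicate 2 lay side by side, and the other TBBC arrays were below all vehicle arrays. The log2 difference was -0.41 ± 0.16 (95% interval -0.78 to -0.03), and it did not pass (adjusted p = 0.192). It was negative in all 18 alternative settings, from -0.54 to -0.19.

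*Fech* (NM_001108434), ferrochelatase, inserts iron into protoporphyrin and completes haem. Its level was 1.48, 1.40 and 1.28 with vehicle and 1.62, 2.24 and 1.77 with TBBC. The groups did not overlap, and TBBC replicate 2 stood highest. The log2 difference was 0.50 ± 0.18 (95% interval 0.06 to 0.93), a 1.41-fold difference that did not pass (adjusted p = 0.178). Without TBBC replicate 2 the difference was 0.31.

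Other enzymes of the pathway were also measured. *Ppox*, the mitochondrial oxidase before ferrochelatase, had a log2 difference of 0.48 ± 0.52 (adjusted p = 0.604). Its vehicle values were 1.34, -0.48 and 1.59, so vehicle replicate 2 set that spread, and the other probe of *Ppox* gave 0.18. *Alas2*, the erythroid form of the first enzyme, differed by 0.31 ± 0.29 (adjusted p = 0.548). Of 4 such enzymes of synthesis and breakdown by limma, 0 rose and 0 fell, 0 had an unadjusted p under 0.05, and their median difference was 0.21.

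**Figure D2:**
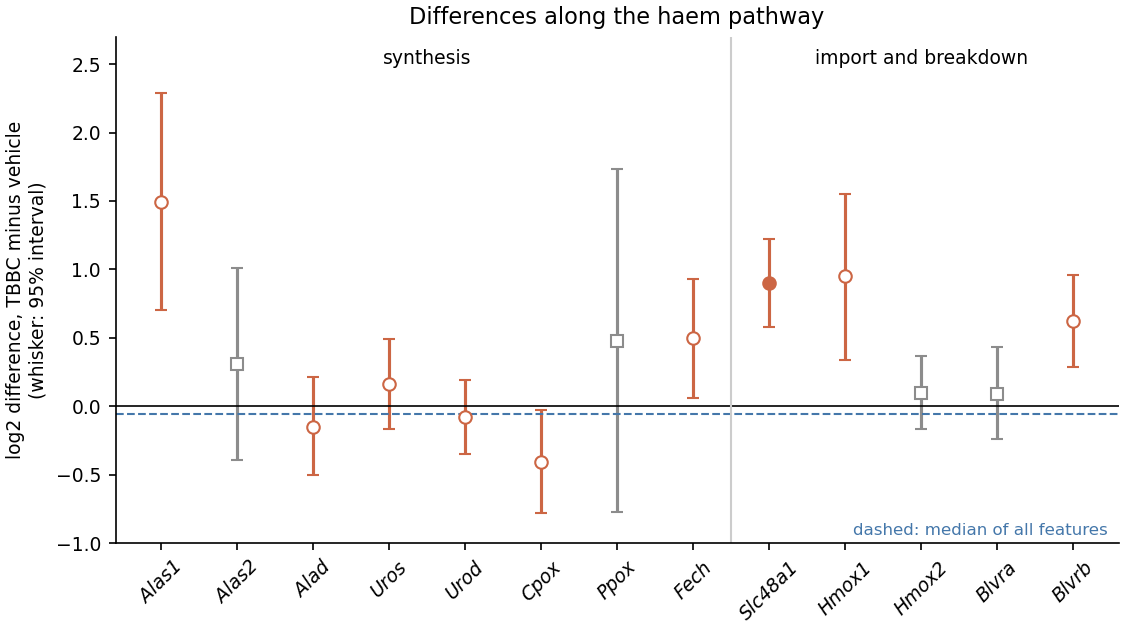
Log2 difference, TBBC minus vehicle (vertical axis), with 95% interval for the haem genes (circles) and the other enzymes (grey squares) in pathway order; a filled symbol passed the adjusted threshold and the dashed line is the median of all features, -0.06. Alas1 stands at 1.49 and Slc48a1, the filled circle, at 0.90, and Alad to Cpox lie between -0.41 and 0.16.

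*Slc48a1* (NM_001127456), also called HRG1, encodes a carrier that moves haem out of endosomes and lysosomes into the cytosol. Its level was -0.21, -0.42 and -0.34 with vehicle and 0.36, 0.70 and 0.66 with TBBC. All TBBC arrays were above all vehicle arrays, and the spread within each group was small (SD 0.10 and 0.18). It rose by 0.90 ± 0.13 on the log2 scale (95% interval 0.58 to 1.22), which is 1.86-fold (adjusted p = 0.0287). The call held in 11 of 18 alternative settings, with adjusted p from 0.0122 to 0.0978. It was lost without a filter on dim probes, with the replicate number as a block, and without vehicle replicate 1 (0.95, adjusted p = 0.088), vehicle replicate 2 (0.85, 0.0855), vehicle replicate 3 (0.89, 0.0754), TBBC replicate 2 (0.83, 0.0978) or TBBC replicate 3 (0.85, 0.0933). Leaving out an array also lowers the number of animals in the fit.

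*Hmox1* (NM_012580), the inducible haem oxygenase, opens the haem ring and is a known target of NRF2. Its level was 1.04, 0.84 and 1.69 with vehicle and 2.40, 2.15 and 1.86 with TBBC. The groups did not overlap, although the highest vehicle array, replicate 3, was close to the lowest TBBC array, replicate 3. The log2 difference was 0.95 ± 0.25 (95% interval 0.34 to 1.55), a 1.93-fold difference that did not pass (adjusted p = 0.101). It was positive in all 18 alternative settings, from 0.77 to 1.20, and passed in none of them (adjusted p 0.0632 to 0.23). *Hmox2*, the constitutive haem oxygenase, differed by 0.10 ± 0.11 (adjusted p = 0.625), with overlapping groups and probes that gave -0.15 and 0.10.

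*Blvrb* (NM_001106236), a biliverdin and flavin reductase, is abundant in red cells and present in liver. Its brightest probe read 5.80, 5.81 and 5.42 with vehicle and 6.31, 6.36 and 6.23 with TBBC. The groups were apart, and TBBC arrays lay close together (SD 0.07). The log2 difference was 0.62 ± 0.14 (95% interval 0.29 to 0.96), a 1.54-fold difference just short of the threshold (adjusted p = 0.0717). All 3 probes of the gene gave similar differences, 0.62, 0.68 and 0.80. It passed in 5 of 18 alternative settings, of which averaging its probes gave 0.70 (adjusted p = 0.0406), and over all 18 the adjusted p ranged from 0.0305 to 0.195. *Blvra*, the biliverdin reductase that makes bilirubin from the main isomer, differed by 0.09 ± 0.14 with overlapping groups (adjusted p = 0.713).

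The median of all features moved by 0.22 with spike-in scaling and by 0.10 with median centring. Relative to that median, the difference of *Alas1* ranged over all alternatives from 1.25 to 1.85, of *Hmox1* from 0.82 to 1.28, of *Slc48a1* from 0.90 to 1.06, of *Blvrb* from 0.57 to 0.90 and of *Fech* from 0.38 to 0.68. The same measure ranged from -0.17 to 0.01 for *Alad*, 0.04 to 0.31 for *Uros*, -0.09 to 0.05 for *Urod* and -0.48 to -0.27 for *Cpox*. Over these settings the first 5 genes stayed at least 0.38 above that median, and *Uros* reached at most 0.31.

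**Figure D3:**
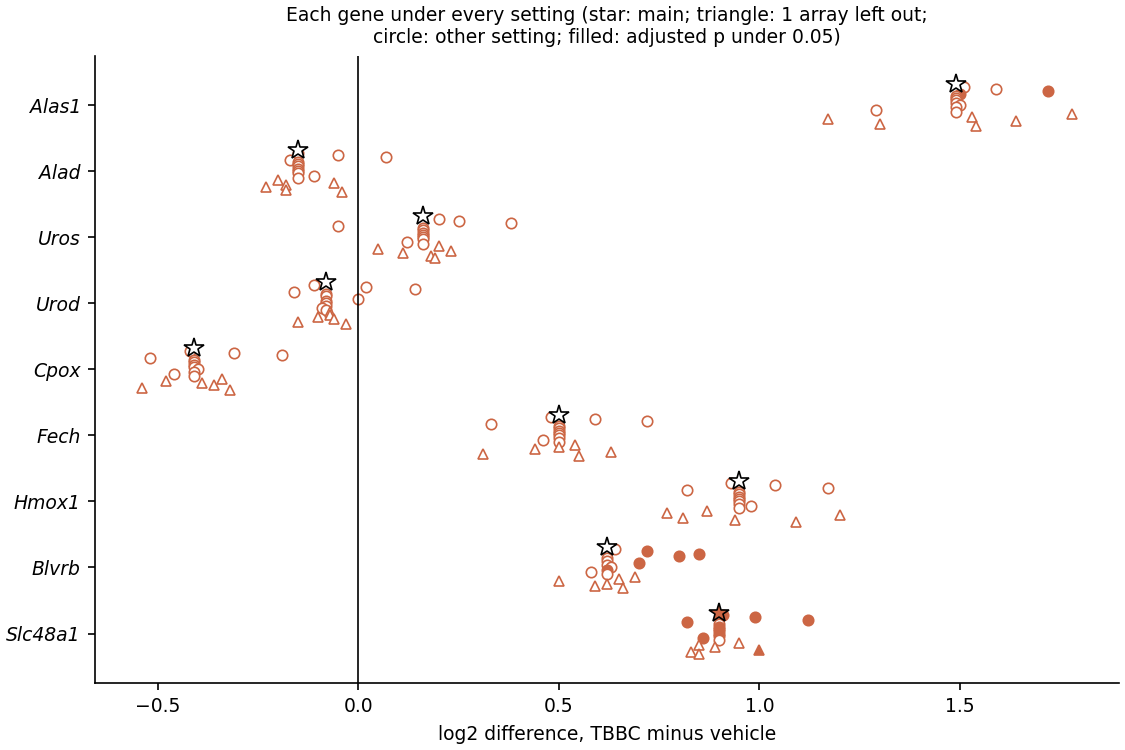
Log2 difference, TBBC minus vehicle (horizontal axis), of each haem gene as reported (star), with 1 array left out (triangles) and under the other alternative settings (circles); filled symbols passed the adjusted threshold. Alas1, Fech, Hmox1, Blvrb and Slc48a1 stayed above 0 and Cpox below 0 in all settings, and Alad, Uros and Urod crossed 0.

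The first step was compared with the others within arrays, as the difference of *Alas1* minus that of each other gene, over 8 comparisons. With 3 animals against 3 the smallest exact two-sided permutation p is 0.1, so no comparison can pass 0.05. The groups of *Alas1* were themselves apart, so a gene that changes little tends to be apart from it. The share of all features apart from *Alas1* in this way was not computed. The values are therefore a description and do not decide whether the first step differed in response. The difference of *Alas1* exceeded that of *Cpox* by 1.90 ± 0.36 (SE), of *Alad* by 1.64 ± 0.44, of *Urod* by 1.58 ± 0.36 and of *Uros* by 1.34 ± 0.47. It exceeded that of *Fech* by 1.00 ± 0.30 and that of *Blvrb* by 0.87 ± 0.30. In these 6 comparisons the groups were apart and the exact permutation p was 0.1, the smallest possible (0.133 after adjustment over the 8). Against *Slc48a1* (0.60 ± 0.35, exact permutation p = 0.2, adjusted 0.229) and *Hmox1* (0.55 ± 0.65, exact permutation p = 0.5, adjusted 0.5) the groups overlapped. Without vehicle replicate 3 the value against *Hmox1* was -0.03.

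Across the 6 arrays, which fall into the 2 groups, the pattern of *Alas1* was compared with that of 10788 named genes well above background on all arrays, as a description. The Pearson correlation with *Alas1* was 0.97 for *Blvrb*, 0.92 for *Slc48a1*, 0.90 for *Fech* and 0.57 for *Hmox1*. It was 0.32 for *Uros*, -0.13 for *Urod*, -0.40 for *Alad* and -0.55 for *Cpox*. The genes most like it were *Cpn1* (0.998), *Ost4* (0.994), *Camta1* (0.990), *Cpd* (0.990) and *Ilrun* (0.988). Their log2 differences, 0.16 for *Cpn1* and 0.34 to 0.46 for the other 4, were smaller than that of *Alas1*, and none of the 5 passed (adjusted p 0.105 to 0.383).

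Cytochromes P450 and other haem proteins use the product of the pathway. Of 18 tested genes of this list, which holds electron partners too, 5 rose, 0 fell and 13 did not pass, with a median difference of 0.64. For this list and those below, 1.68% of all features were called higher and 1.4% lower. An unadjusted p under 0.05 was found for 23.0% of all features. The drug-metabolising *Cyp2b1* read 4.23, 3.94 and 3.73 with vehicle and 8.17, 8.84 and 8.78 with TBBC, a rise of 4.63 ± 0.22 on the log2 scale (adjusted p = 0.00116). *Cyp2b2* rose by 4.18 ± 0.17, and its 5 probes gave 3.84 to 5.77. Probes of these close relatives can bind RNA of each other, so their single values are uncertain. *Por*, the flavoprotein that feeds electrons to cytochromes P450 and to haem oxygenase and holds no haem itself, rose by 1.81 ± 0.27 (adjusted p = 0.0282). *Cyp51*, the sterol demethylase, rose by 1.68 ± 0.20 (adjusted p = 0.0186). *Cyb5a*, cytochrome b5, singled out after its values were seen, rose by 0.75 ± 0.12 (adjusted p = 0.0348). The calls of *Por* and *Cyb5a* were lost in 7 and 8 of 18 alternative settings, that of *Cyp51* in 3, and those of *Cyp2b1* and *Cyp2b2* in none.

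Genes that handle bilirubin, the end product of breakdown, counted 3 risers, 0 fallers and 5 that did not pass among 8. Over all features 1.68% were called higher and 1.4% lower. The list median was 0.63. *Ugt1a1*, the enzyme that conjugates bilirubin with glucuronic acid, read 2.55, 2.78 and 2.83 with vehicle and 3.48, 4.30 and 4.04 with TBBC. It rose by 1.22 ± 0.22 (2.32-fold, adjusted p = 0.0442), a call lost in 7 of 18 settings. Members of the Ugt1a family share exons, so its probe may read more than *Ugt1a1*. *Abcc3*, which exports glucuronides into blood, rose by 4.96 ± 0.21 (adjusted p = 0.00084). *Slco1a4*, an uptake carrier of organic anions, rose by 1.1 ± 0.19 (adjusted p = 0.0371; lost in 8 of 18 settings).

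Of 17 tested genes of haem and porphyrin transport, 1 rose and 0 fell, beside 1.68% and 1.4% of all features, and 16 did not pass. Their median was 0.17. The riser was *Pgrmc1*, a haem-binding membrane protein that partners cytochromes P450, at 0.66 ± 0.11 (adjusted p = 0.0379; lost in 8 of 18 settings), and its 4 probes gave 0.65 to 0.93. Of 12 tested genes of iron supply, 1 rose and 0 fell, beside 1.68% and 1.4% of all features, and 11 did not pass. Their median was 0.10, with a range of -2.88 to 1.55. The ends of that range, named after their values were seen, were *Hamp* (-2.88 ± 0.88, limma adjusted p = 0.13) and *Tfrc* (1.55 ± 0.36, limma adjusted p = 0.0758). In both genes the groups did not overlap, and neither passed. Among the 12 genes all TBBC values were higher in 3, beside 12.3% of all features, and lower in 2, beside 18.8%. For *Hamp* the lowest vehicle value, 6.72, was close to the highest TBBC value, 6.56. *Aco1*, the cytosolic aconitase that also acts as an iron-regulatory protein, rose by 1.03 ± 0.11 (adjusted p = 0.0121), from 4.88, 4.66 and 4.77 with vehicle to 5.80, 5.84 and 5.75 with TBBC. Its call was lost in 2 of 18 settings.

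Regulators of *Alas1* and *Hmox1* were measured for 15 genes. None of the 15 passed by limma, 2 had an unadjusted p under 0.05, beside 23.0% of all features, and the median was -0.04. Named after their values were seen, these 2 were *Mafk*, at 0.81 ± 0.22 (limma adjusted p = 0.102), and *Keap1*, at 0.32 ± 0.12 (limma adjusted p = 0.18). All TBBC arrays were above all vehicle arrays in these 2 of the 15 genes, beside 12.3% of all features. In 2 others all were below, beside 18.8%. Since *Mafk* and *Keap1* were picked by their unadjusted p, the separation of their groups adds no support. *Nr1i2*, the receptor PXR, differed by -0.03 ± 0.16 and *Clpx*, a mitochondrial unfoldase that acts on ALAS1 protein, by -0.29 ± 0.12. *Nrf1*, nuclear respiratory factor 1, whose motif stands in the *Alas1* promoter printed above and which was chosen after its values were seen, differed by -0.10 ± 0.14 (adjusted p = 0.712).

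**Figure D4:**
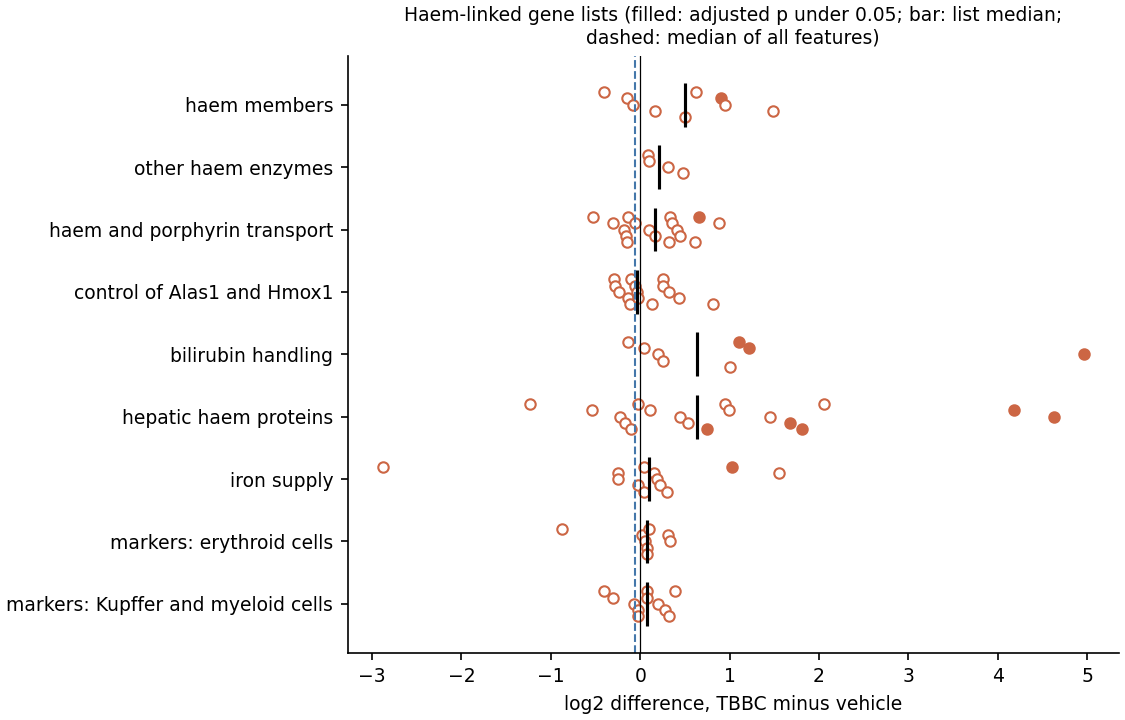
Log2 difference, TBBC minus vehicle (horizontal axis), of each tested gene in lists around haem; filled points passed the adjusted threshold, vertical bars are list medians and the dashed line is the median of all features. The haem proteins and bilirubin genes hold the points above 4, and the markers of erythroid and of Kupffer and myeloid cells hold none that passed.

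Red cells carry *Alas2* and *Blvrb*, and macrophages *Hmox1* and *Slc48a1*. Of 8 tested erythroid markers of 12 listed, 0 passed by limma. An unadjusted p under 0.05 was found for 1, *Epb42* (-0.88 ± 0.36, with overlapping groups), beside 23.0% of all features. The summed signal of the 8 was 584.7 to 1007 times the array's 75th percentile with vehicle and 740.3 to 967.4 with TBBC. It was mostly that of the globin genes *Hba-a1*, *Hbb* and *Hbb-b1*, the brightest of the 8. *Rhag* was not well above background on any array. *Hba-a1* and *Hbb* differed by 0.08 ± 0.24 and 0.05 ± 0.21. All 11 Kupffer and myeloid markers were tested, 0 passed by limma and 0 had an unadjusted p under 0.05, and their sum was 107.4 to 217.6 with vehicle and 112.4 to 235.5 with TBBC. Both sums overlapped between the groups.

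Of the markers of other cell types, *Ahsg* and *Epcam* passed. Of 8 hepatocyte markers, 1 passed: the secreted hepatocyte protein gene *Ahsg* fell by 0.83 ± 0.12 (adjusted p = 0.0292; lost in 9 of 18 settings). Of these 8 markers, 7 had a negative difference, and the list median was -0.3, beside -0.06 for all features. An unadjusted p under 0.05 was found for 4, beside 23.0% of all features. All TBBC values were lower in 5, beside 18.8%. *Apoa1* had the widest difference, -1.0 ± 0.19, and did not pass. The hepatocyte markers summed to 5695 to 6673 with vehicle and 4899 to 5017 with TBBC, so every TBBC sum lay below every vehicle sum. Of 4 tested biliary markers, 1 passed: *Epcam*, an adhesion molecule of epithelial cells, rose by 1.83 ± 0.21 (adjusted p = 0.0147; lost in 2 of 18 settings). The biliary sum, 1.12 to 1.23 with vehicle and 2.68 to 4.09 with TBBC, was mostly *Epcam*, the brightest of the 4. The other tested biliary markers overlapped between the groups and did not pass, with differences of -0.33 for *Krt7*, 0.44 for *Krt19* and 0.25 for *Spp1*. The listed biliary marker *Cldn7* was left out of the reported fit by the filter on dim probes. In the 2 alternative settings that kept it, *Cldn7* differed by 3.14 to 4.57, and it passed in 1 of them. Of 6 tested T, B and NK cell markers, 0 passed by limma, and 1 had an unadjusted p under 0.05, beside 23.0% of all features. The groups overlapped in 4, and all TBBC values were lower in 2, beside 18.8% of all features. The difference was negative in 5 of the 6. The sum of the 6 was 2.48 to 2.77 with vehicle and 1.74 to 2.42 with TBBC, so every TBBC sum lay below every vehicle sum. On no array was *Cd3e* well above background. Of 8 stellate and endothelial markers, 0 passed by limma, 0 had an unadjusted p under 0.05, and the sums overlapped, at 55.2 to 67.9 and 59.4 to 61.6. The part of these cell types in the differences of the haem genes was not tested.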

How the data were processed

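The scanner files deposited by the authors give linear spot intensity. Per the file headers they come from Agilent Feature Extraction 10.7.1.1 (10.7 per the submitters' processing notes), with background already subtracted, and the array design is on build rn4. The deposited value table equals the processed intensity times 1 constant per array, with column medians of 0.1013, 0.1077 and 0.1033 (vehicle) and 0.0977, 0.0972 and 0.0974 (TBBC); it runs in the direction of the signal, with no centring of genes. No other step is given in the sources used here.

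Each array held 61537 probes other than controls, of which 60.0% to 64.0% were well above background; 25 probes with an outlier flag were left out. Each processed intensity was put on the log2 scale and the 75th percentile of its array subtracted. A probe was kept where every array of 1 group or of both had it well above background. The files hold no gene names, so 28206 probes (45.8%) were named through unversioned RefSeq accessions (GRCr8 table), and a gene was its probe with the highest mean. Limma 3.58.1 in R 4.3.3 (lmFit, eBayes, no covariate, two-sided) compared the groups. The fit was also run on simulated data with planted changes larger than the difference of any haem gene. That run therefore does not test the fit for differences of their size. Single comparisons used exact permutation tests in Python 3.11.15. The number of arrays limits the precision. The labels speak of separate animals, so p-values measure the spread between animals and any technical spread within a group. Marker sums add linear signals of each tested marker's probe. Promoters were searched on both strands.

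The haem genes and the lists were chosen with earlier results of these data known. All 9 haem genes and the 4 further enzymes of the list are named; 1 listed gene is not reported here. Of the other lists, up to 4 genes past the threshold by size of change are named, and in lists without any such gene up to 2 of the brightest. Some further genes of these lists and of the markers were named after their values were seen. Of genes like *Alas1*, the 5 with the highest correlation are named. Alternatives were quantile normalization, median centring, spike-in scaling, normexp with offset 50 on median signals, no filter, a stricter filter (all 6 arrays), averaged probes, single probes, the deposited table, a trended robust eBayes, array weights, a block by replicate number, and leaving out each array.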

Additional observations from a re-analysis of the deposited data

How the results depend on the processing

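The number of features past the threshold, 902 in the reported fit, was 1589 with normexp, 194 without a filter on dim probes and 211 with the replicate number as a block, and 104 (without TBBC replicate 2) to 365 (without TBBC replicate 1) when an array was left out, where fewer animals enter the fit. Of the haem genes, 1 passed in the reported fit. The count was 2 with median centring, with the mean of a gene's probes and with trend and robust eBayes, 3 with spike-in scaling and with normexp, 0 without a filter and with the block, and 0 to 1 when an array was left out. Signs turned for *Alad* (0.07 with spike-in scaling), *Uros* (-0.05 with normexp) and *Urod* (0.02 with median centring, 0.14 with spike-in scaling), none of which passed in any setting, and for *Alas1* against *Hmox1* (-0.03 without vehicle replicate 3, in a range of -0.03 to 0.91 when an array was left out); the cause was not tested. *Alas1*, *Fech*, *Hmox1*, *Blvrb*, *Slc48a1* and *Cpox* kept their direction in all 18 alternatives.

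The labels name no pairing of animals by replicate number. Deviations from the group mean of same-numbered arrays correlated at 0.004, -0.022 and 0.144, and those of differently numbered arrays at -0.1 to 0.092. With so few arrays these values cannot decide whether animals were paired. With the replicate block the difference of *Slc48a1* was 0.90 (adjusted p = 0.0911), and 1 call of a haem gene was lost. The slide as a block was not run because no slide holds both groups. *Uros*, *Slc48a1* and *Cpox* lay well above background on all arrays, so signal over background does not bound their values.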
